A study of Mus musculus with 8 samples.

Results

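The replication-dependent histone genes are the clustered genes that make the bulk of histone protein while DNA is copied. They were chosen here as the protein-coding genes of mouse build GRCm38 named *H1f1* to *H1f6*, or H2ac, H2bc, H3c or H4c with a digit, together with genes whose older symbol begins with Hist1, Hist2, Hist3 or Hist4. The choice gave 67 of 21536 protein-coding genes with a known start and strand, 63 through the current symbol and 4 (*H2bu2*, *H2aw*, *H4f16* and *H4bc24*) through the older symbol alone. They comprised 6 genes for H1, 18 for H2A, 18 for H2B, 12 for H3 and 13 for H4. Their H3K27ac was read in P5424, a mouse cell line that resembles T cell precursors, in wild-type (wt) cells and in cells in which CRISPR/Cas9 had removed both copies of IkE120, an enhancer of *Ikzf1* (ΔIkE120). There was 1 wt ChIP-seq library and 1 ΔIkE120 library, the ΔIkE120 line was 1 clone, and whether the cells had been stimulated is not given in the sources used here. Genotype, clone and library cannot be told apart, and no difference between the lists has a replicate check. The deposited wt list held 34553 peaks and the ΔIkE120 list 29902, and the read depth behind either list is unknown. As a check of the line, all 10 T cell markers reported here, *Cd3e*, *Cd3g*, *Cd3d*, *Ptcra*, *Rag1*, *Lck*, *Ikzf1*, *Tcf7*, *Gata3* and *Bcl11b*, had a peak within 1 kb of the start in both lists. Among 7 markers of B cells, myeloid cells and liver (*Pax5*, *Cd79a*, *Ebf1*, *Csf1r*, *Lyz2*, *Itgam* and *Alb*), only *Ebf1* had one, with 464 covered bases in wt and 253 in ΔIkE120. Of all protein-coding genes, 44.5% had such a peak in wt and 43.8% in ΔIkE120.

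Histones H2A, H2B, H3 and H4 form the core of the nucleosome, and H1 binds the DNA that links nucleosomes. The replication-dependent genes are short, mostly lack introns, often sit head to head in pairs that share a promoter region, and give messenger RNAs that end in a stem-loop in place of a poly(A) tail. H3K27ac is a mark of nucleosomes next to active promoters and enhancers, and in dividing T cell precursors the histone genes are used heavily during S phase.

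Most histone genes had an H3K27ac peak nearby. A peak lay within 1 kb of the start of 51 of the 67 genes in wt, 76.1%, against 44.5% of all protein-coding genes. In ΔIkE120 it was also 51 of 67, against 43.8% of all. Both lists had a peak at 50 of the genes, 74.6%, against 43.4% of all, and neither list had one at 15, 22.4%, against 55.1%. By family, wt peaks lay at 5 of 6 H1 genes, 14 of 18 H2A genes, 14 of 18 H2B genes, 9 of 12 H3 genes and 9 of 13 H4 genes. The ΔIkE120 counts were 5, 14, 13, 10 and 9 in the same order.

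Only *H2bu2* and *H3c6* differed in presence between the lists. *H2bu2*, an H2B gene of the small chromosome 11 group, had a wt peak of 368 bp at chr11:58949036-58949403, 125 bp downstream of its start, and no ΔIkE120 peak nearer than 5740 bp. It was the single histone gene with a peak in wt only, where the share of all protein-coding genes was 1.10%. *H3c6*, an H3 gene, had a ΔIkE120 peak of 216 bp at chr13:23562212-23562427 that covered its start, while the nearest wt peak was 6332 bp away. It was the single histone gene with a peak in ΔIkE120 only, against 0.492% of all. Both peaks ranked low in their own list by q-value and less so by fold enrichment. The −log10 q of the *H2bu2* peak, the caller's corrected score for a peak, was 2.74, no lower than 6.16% of wt peaks at protein-coding starts, and that of the *H3c6* peak was 2.88, no lower than 6.64% of the ΔIkE120 peaks. Their fold enrichments were 3.40, no lower than 31.1% of the wt peaks, and 3.15, no lower than 19.9% of the ΔIkE120 peaks, each above the median of the histone peaks in its list. When each list was limited to peaks from its median −log10 q upwards, neither gene had one, 3 other starts (*H1f4*, *H2bc6* and *H3c10*) had a peak in wt only, against 1.66% of all starts, and 0 in ΔIkE120 only, against 0.822%. *H1f4* and *H2bc6* shared their ΔIkE120 peak, with a −log10 q of 2.99, and that of *H3c10* fell just short, at 4.44. The limits were unequal, 4.12 in wt and 4.47 in ΔIkE120. The *H3c10* peak of ΔIkE120 and the *H1f4* peak of wt, at 4.45, lay between these limits, so both calls depend on the unequal cut.

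The 15 genes without a peak fell into a few groups. *H1f6*, *H2ac1* and *H2bc1*, which encode the testis-enriched H1t, H2A and H2B, had none in either list, and the head-to-head pair *H2bc1* and *H2ac1* lay far from any peak, 170636 and 170917 bp in wt and 23593 and 23874 bp in ΔIkE120. The 6 genes at one end of the first chromosome 13 group, *H2bc23*, *H2ac23* and *H4c17* followed by *H4c18*, *H2ac24* and *H4bc24*, also had none within 1 kb. Peaks did lie between them, at chr13:21822082-21822871 and chr13:21830323-21830844 in wt and at chr13:21820842-21821172 and chr13:21830247-21830873 in ΔIkE120, the last 1324 bp from the *H4c18* start. Most of the sequence around these starts occurs elsewhere in the genome too. The 300-base promoters of *H2bc23* and *H4bc24* were identical in all 300 bases. Reads from such copies cannot be placed with certainty, so the share of 50-base words in the window around each start that occur once in the mouse genome was counted. It was 0% for *H2bc23*, *H2ac23*, *H2ac24* and *H4bc24*, 6.85% for *H4c17* and 7.85% for *H4c18*. *H3c14*, an H3 gene of chromosome 3 with a near-copy in *H3c15*, had no peak and 23.4% unique words, but *H3c15* had a peak in both lists with 24.3%. The other 5 genes without a peak had mostly unique windows. These were *H3c11* at 84.2%, *H2ac8* and *H2bc8* at 71.7% each, *H4c4* at 94.5% and *H4c2* at 90.5%. The nearest wt peak lay 2657 bp from the *H3c11* start, 2181 bp from *H2ac8*, 2001 bp from *H2bc8*, 2772 bp from *H4c4* and 3421 bp from *H4c2*. The ΔIkE120 distances were 2679, 1367, 1187, 2881 and 3344 bp in the same order, so that with a 2 kb window *H2ac8* and *H2bc8* had a peak in ΔIkE120 and not in wt. Both were counted through the same weak peak, chr13:23572587-23573161, with a −log10 q of 1.95 and a fold enrichment of 1.84. *H1f6* went the other way, with its nearest peak 1916 bp away in wt and 2925 bp in ΔIkE120. At 2 kb, 1.35% of all protein-coding starts had a peak in wt only and 0.632% in ΔIkE120 only. Fewer than 50% of words were unique for 7 of the 15 genes without a peak and for 3 of the 52 with a peak in either list (*H3c15*, *H2ac18* and *H2ac19*). The read length and the authors' treatment of reads that fit several places are not given in the sources used here. The shares of unique 50-base words therefore need not hold for the reads of these libraries. The part of read placement in the missing peaks was not tested.

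At the histone genes the peaks stood beside the start and seldom on it. Of the 51 histone starts with a wt peak, 9 had the start base itself under the peak, 17.6%, against 67.3% of all protein-coding starts with a peak. In ΔIkE120 it was 8 of 51, 15.7%, against 66.9%. Peaks on both sides with the start base bare were seen at 20 histone starts in wt, 39.2%, against 12.1% of all. The ΔIkE120 list also had 20 of 51, against 11.7%. The bare stretch at these starts had a median of 593.5 bp in wt, with a range of 241 to 971 bp, and of 590 bp in ΔIkE120, from 309 to 997 bp. The same stretch over all protein-coding starts had a median of 273 bp in wt and 271 bp in ΔIkE120. Starts that share a bare stretch, such as the head-to-head *H2bc13* and *H2ac13*, were each counted. At least 2 peaks within 1 kb were found at 23 of 51 histone starts in wt, against 21.2% of all, and at 24 of 51 in ΔIkE120, against 20.5%.

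Coverage fell to its lowest just upstream of the start. At 50 bp upstream, 7.84% of the histone starts with a peak were covered in wt and 7.84% in ΔIkE120, where all protein-coding starts had 59.1% and 58.5%. Upstream, coverage of the histone genes rose to 66.7% at 600 bp in wt and 68.6% at 550 bp in ΔIkE120. Downstream it rose to 68.6% at 450 bp in wt and 60.8% at 550 bp in ΔIkE120. All protein-coding starts instead had their maximum at 250 bp downstream, with 88.1% in wt and 88.4% in ΔIkE120, where the histone genes had 39.2% and 31.4%. Word counts differ on the 2 sides of the start. At 50 bp upstream, where coverage was lowest, the 50-base word was unique at 49 of the 51 histone starts with a wt peak, 96.1%. At 200 bp downstream, inside the coding sequence that the copies share, it was unique at 11 of 51, 21.6%, and at 450 bp downstream at 48 of 51. The upstream side of the bare stretch lies mostly on sequence that occurs once, and the downstream side lies largely on shared sequence. The part of shared sequence in the low coverage was not tested on either side.

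**Figure D1:**
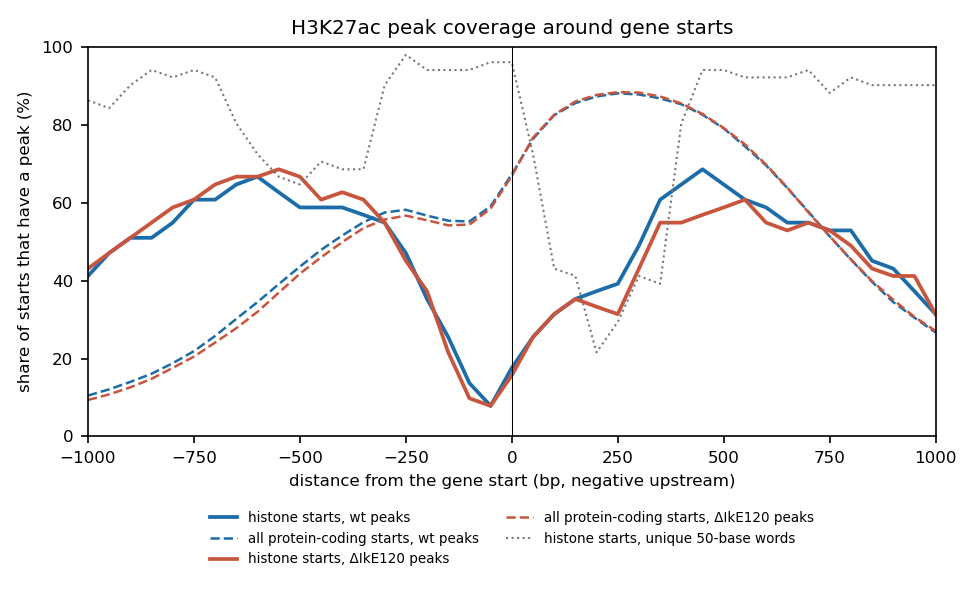
Share of starts under a peak (y axis, %) at each distance from the gene start (x axis, bp, negative upstream), over starts with a peak within 1 kb, in wt (blue) and ΔIkE120 (red); solid lines are histone genes (51 in each list), dashed lines all protein-coding genes, and the dotted line is the share of the 51 histone genes with a wt peak whose 50-base word there is unique in the genome. The histone lines drop to 7.84% at 50 bp upstream in both lists, while the dashed lines are highest at 250 bp downstream.

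The 300-base promoter sequences in RefSeq, from 250 bases before to 50 after a start, matched 62 of the 67 genes, and 46 of those had a peak in each list. No promoter base was covered at 20 of the 46 in wt, 43.5%, against 9.29% of all protein-coding promoters with a peak nearby. In ΔIkE120 it was 17 of 46, 37.0%, against 9.05%. The median histone promoter had 38 of its 300 bases covered in either list, and over all promoters the median was 299 bases in wt and 274.5 in ΔIkE120. Gene bodies were covered in part. The median share of the gene under a peak was 35.4% in wt and 30.8% in ΔIkE120, with 7 genes covered end to end in wt and 4 in ΔIkE120. Over all protein-coding genes with a peak the medians were 4.28% and 4.09%, and 0.157% and 0.138% of the genes were covered end to end. Those genes are much longer, with a median of 22128 bp against 493 bp for the histone genes in wt, and the part of length was not tested.

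No peak covered the start bases of more than 1 histone gene. Of 49 distinct peaks at histone starts in wt and 51 in ΔIkE120, the count over 2 or more histone starts was 0 in each list. With starts of any protein-coding gene counted, it was 1 in each list, the peak over *H2aw* and its neighbour *Trim17*. That is 2.04% of the wt peaks, against 6.70% of all wt peaks at protein-coding starts, and 1.96% of the ΔIkE120 peaks, against 6.66%. When peaks up to 500 bp apart were joined, 4 wt stretches and 2 ΔIkE120 stretches covered several histone starts, among them *H2ac21*, *H2ac20* and *H2bc21* together and *H2bc9* with *H3c7* in both lists. With starts of any protein-coding gene counted, it was 5 of 43 joined stretches in wt, 11.6%, against 10.6% of all joined stretches at starts, and 3 of 43 in ΔIkE120, 6.98%, against 10.5%. A peak reached the 1 kb windows of 2 or more histone genes in 22 of 49 cases in wt and in 22 of 51 in ΔIkE120, whether it lay between the starts or to one side of them. With windows of any protein-coding gene it was 23 of 49, 46.9%, against 14.0% of all wt peaks at starts, and 23 of 51, 45.1%, against 14.1% in ΔIkE120. The most any peak reached was 3 windows, as at *H4c9*, *H2ac11* and *H2bc11*. That peak ran over chr13:22041516-22042659 in wt, 1144 bp, and over chr13:22041467-22042951 in ΔIkE120, 1485 bp, where its end took in the *H2ac11* start by 3 bases.

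The 13 head-to-head pairs of histone genes had starts 164 to 608 bp apart, with a median of 229 bp. Peaks lay at both starts of 9 of the 13 pairs in each list. Of 737 head-to-head pairs of any protein-coding genes, a larger share had them, 667 in wt and 665 in ΔIkE120. Histone pairs without peaks were *H2bc23* with *H2ac23*, *H2ac24* with *H4bc24*, *H2bc1* with *H2ac1*, and *H2ac8* with *H2bc8*. In the first and second of these, 0% of the words were unique, and the third is the testis-enriched pair. The part of shared sequence in the lower share was not tested. A peak over both start bases was seen at 0 of the 9 histone pairs in wt, against 60.4% of the 667 pairs of any genes, and at 0 of the 9 in ΔIkE120, against 58.3% of 665. Starts of the pairs over all genes were closer, 1 to 1000 bp apart with a median of 101 bp, and the part of distance in these shares was not tested. No base between the starts was covered at 6 of the 9 in wt, against 21.3%, and at 6 of the 9 in ΔIkE120, against 22.4%. *H2bc13* and *H2ac13*, with starts 229 bp apart, are a plain case. One wt peak, chr13:21715243-21715855, ended 328 bp downstream of the *H2bc13* start, and the next, chr13:21716676-21717316, began 264 bp downstream of the *H2ac13* start. The ΔIkE120 peaks on the same sides stopped 288 and 266 bp from those starts. *H2ac15* with *H2bc15*, *H2ac22* with *H2bc22* and *H2ac12* with *H2bc12* also had 0 covered bases between the starts in both lists. *H2bc9* with *H3c7* was the exception, with 327 of the bases between its starts covered in wt and 331 in ΔIkE120. The other 4 pairs with peaks had 4 covered bases or fewer there in either list.

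**Figure D2:**
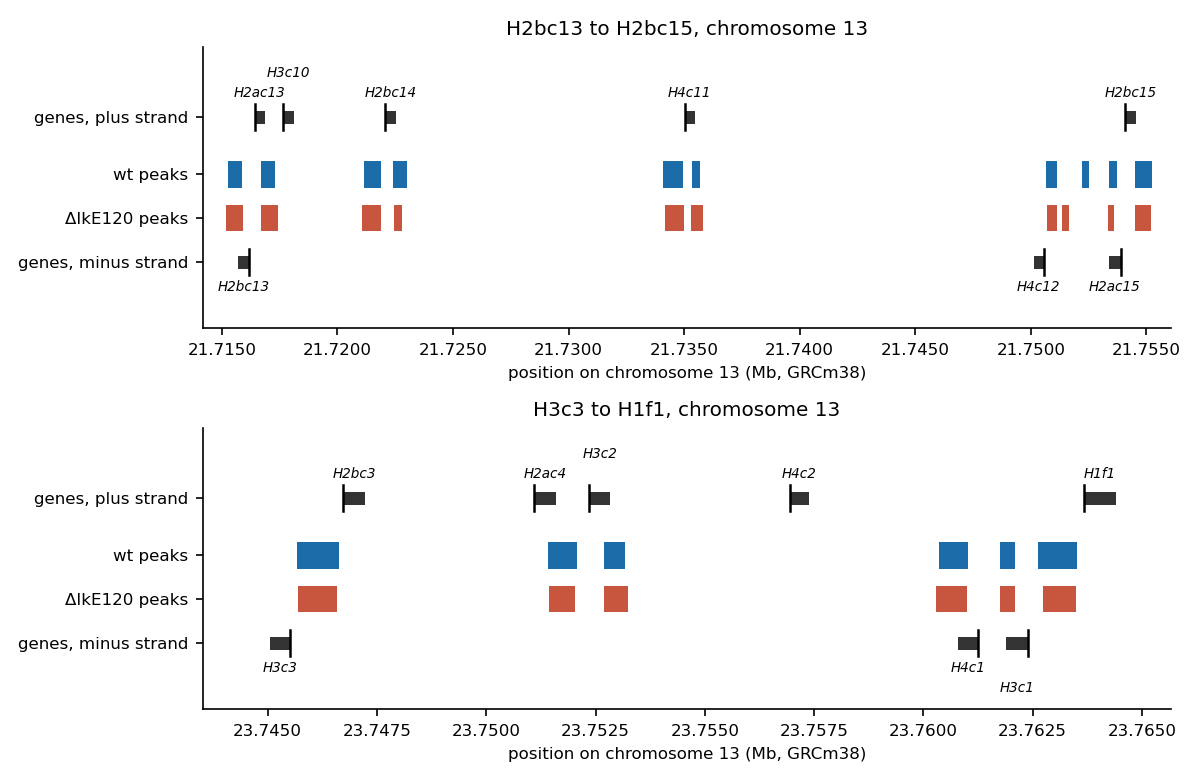
Peaks of wt (blue) and ΔIkE120 (red) with histone genes on each strand (grey boxes, black bars at the start) along 2 stretches of chromosome 13 (x axis, Mb, GRCm38). Peaks end short of most starts, and at *H2bc13* and *H2ac13* they leave the 229 bp between the starts bare in both lists.

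Peaks at histone starts were shorter than those at other starts and ranked lower within their own list. The wt peaks measured 287 to 2721 bp with a median of 651 bp, beside a median of 938 bp for all peaks at protein-coding starts. The ΔIkE120 peaks measured 216 to 1485 bp with a median of 702 bp, beside 935 bp. Among histone peaks from the median −log10 q of their list upwards, the median was 900 bp in wt and 859 bp in ΔIkE120. With peaks up to 500 bp apart joined, it was 770 and 876 bp. The matching medians over all starts were not computed. Median fold enrichment over the caller's background was 2.53 in wt beside 3.94 for all wt peaks at starts, and 2.55 in ΔIkE120 beside 4.10. The median −log10 q was 5.78 beside 10.9 in wt and 6.03 beside 11.3 in ΔIkE120. These scores depend on depth and were not compared between lists. Most histone peaks had a counterpart, since 43 of the 49 wt peaks overlapped a ΔIkE120 peak, 87.8% beside 95.2% of all, and 45 of the 51 ΔIkE120 peaks overlapped a wt peak, 88.2% beside 97.5%.

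Among the linker histone genes, *H1f1* to *H1f5* had peaks in both lists. *H1f2* stood out in length. Its wt peak, at chr13:23738014-23740734, was 2721 bp long, longer than or as long as 99.9% of wt peaks at starts, and the ΔIkE120 list had 2 peaks in the same stretch, of 1389 bp at chr13:23738104-23739492 and of 774 bp at chr13:23739880-23740653. The wt peak and the longer ΔIkE120 peak covered the *H1f2* start. Bases covered within 1 kb of the *H1f2* start were 1794 in wt and 1389 in ΔIkE120, giving a ratio of ΔIkE120 to wt of 0.774. *H1f5* had 923 and 909 covered bases, and its wt peak began 78 bp downstream of the start and covered 90.2% of the gene. *H1f3* had a peak on either side of its start in both lists, with 1165 and 1159 covered bases. *H1f4* had 995 and 885, and *H1f1*, whose peak lay upstream alone, had 853 and 743.

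The H2A and H2B genes are partners in the nucleosome and in most head-to-head pairs. Covered bases at H2A starts with a peak ran from 531 to 1760 in wt and from 500 to 1692 in ΔIkE120, and at H2B starts from 368 to 1760 and from 754 to 1692. *H2ac21*, *H2ac20* and *H2bc21*, at the start of the chromosome 3 group, shared a wt peak of 1719 bp at chr3:96219130-96220848 that covered the *H2ac21* start. Its −log10 q of 18.4 was the second highest at a histone start in wt. In ΔIkE120 the same stretch held a peak of 224 bp, the second shortest at any histone start in that list, and one of 971 bp with a −log10 q of 26.8, again the second highest of its list. *H2ac21* thus had 1719 covered bases in wt and 1195 in ΔIkE120, giving a ratio of 0.695. The ΔIkE120 peak of 1274 bp downstream covered the *H2bc21* start by 2 bases, which the wt peak of 1261 bp missed by 18 bp. *H2ac18*, with 44.5% unique words, had one of the longest ΔIkE120 peaks, 1479 bp, beside 1456 bp in wt.

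*H2bc18* had 1069 covered bases in wt and 787 in ΔIkE120, giving a ratio of 0.736. One of its wt peaks, the shortest at a histone start with 287 bp at chr3:96269931-96270217, had no ΔIkE120 counterpart. *H2bc6* had the smallest ratio of all, 0.646, with 1206 covered bases in wt and 779 in ΔIkE120. The annotated *H2bc6* start is that of a long transcript, and at its other start, position 23585970 of chromosome 13, the 2 wt peaks covered 1292 bases and the 2 ΔIkE120 peaks 1350. *H2bc11* and *H2ac11* went the other way, through the longer ΔIkE120 peak given above. *H2bc11* had 462 covered bases in wt and 754 in ΔIkE120, the largest ratio at 1.63, and *H2ac11* had 711 and 1003, giving a ratio of 1.41. *H2ac6* and *H2bc4* shared a wt peak of 1505 bp, the third longest, and *H2ac15* and *H2bc15* held some of the lowest scores, with a lowest −log10 q of 1.63 among their ΔIkE120 peaks.

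Of the H3 genes, *H3c3* shared with *H2bc3* the highest-scoring histone peak of both lists. It filled most of the space between the 2 starts, at chr13:23745677-23746634 in wt (958 bp, −log10 q of 20.8) and at chr13:23745702-23746580 in ΔIkE120 (879 bp, 27.3). It stopped 156 bp short of the *H3c3* start and 100 bp short of the *H2bc3* start in wt, and 181 and 154 bp short in ΔIkE120. *H3c13* was one of the few covered throughout, with its start and whole gene under a wt peak of 1327 bp and a ΔIkE120 peak of 1235 bp. *H3c8* had a peak of 293 bp in wt and 243 bp in ΔIkE120, each among the 3 shortest of its list, beside a longer one upstream. *H3c4* had 373 covered bases in wt and 313 in ΔIkE120, giving a ratio of 0.839, although the peaks behind them did not overlap. The wt peak lay at chr13:23576065-23576437 and the ΔIkE120 peak, with a −log10 q of 1.95, at chr13:23576451-23576782.

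Of the 9 H4 starts with a peak in each list, 1 was covered in wt, that of *H4f16*, and 0 in ΔIkE120. Over all protein-coding starts with a peak, the covered share was 67.3% in wt and 66.9% in ΔIkE120. *H4c11* had the third highest score of a histone peak in both lists, with 17.7 as its −log10 q in wt and 23.6 in ΔIkE120. The wt peak ended 62 bp upstream of the start and the ΔIkE120 peak 54 bp, and another began 304 and 269 bp downstream. The largest ratios among the H4 genes came with an extra ΔIkE120 peak. *H4c14* had 816 covered bases in wt and 1168 in ΔIkE120, giving a ratio of 1.43, and the −log10 q of its extra peak, 1.56, was the lowest at any histone start in that list. *H4f16*, alone on chromosome 6, had 1024 and 1380, giving a ratio of 1.35, and *H4c12* had 485 and 643, giving a ratio of 1.33. *H4c6* had an extra peak in wt, with the lowest −log10 q of the wt peaks at histone starts, 1.73, but 614 covered bases in wt and 593 in ΔIkE120. *H4c3* had a wt peak of 435 bp downstream of its start and a ΔIkE120 peak of 478 bp upstream, which did not overlap.

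Summed over the histone genes, the lists covered nearly the same length. With neighbours no more than 100 kb apart joined and 1 kb added at each end, the genes formed 7 groups. Peaks covered 46065 bases of them in wt, in 61 peaks, and 45843 in ΔIkE120, in 66 peaks, giving a ratio of 0.995. Within 1 kb of the starts, wt peaks covered 49195 bases and ΔIkE120 peaks 48440, with bases in overlapping windows counted for each gene, giving a ratio of 0.985 beside 0.975 over all protein-coding starts. All peaks of the lists together covered 25189952 and 22143580 bases, giving a ratio of 0.879. For single genes with peaks in both lists, the ratio ran from 0.646 to 1.63 with a median of 0.995 over 50 genes, 23 above 1 and 27 below. Over all 9336 protein-coding genes with peaks in both lists the median was 0.987, with quartiles of 0.898 and 1.07, and the quartiles of the histone genes were 0.908 and 1.08.

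The 2 largest groups, both on chromosome 13, were close in the lists. The group of 29 genes from *H4c8* to *H1f1*, chr13:23530044-23765412, had 22549 covered bases in wt and 22171 in ΔIkE120, giving a ratio of 0.983. The group of 18 genes from *H2bc13* to *H4bc24*, chr13:21714711-21838530, had 9843 and 9551, giving a ratio of 0.970. Peaks lay at 11 of its 18 starts in each list, against 44.5% of all protein-coding starts in wt and 43.8% in ΔIkE120. On chromosome 3, the 10 genes from *H2ac21* to *H2bc18*, chr3:96218885-96271192, had 9027 and 9018, giving a ratio of 0.999. The smaller groups moved more. The 5 genes of chr13:22034122-22044658 had 2052 and 2500, giving a ratio of 1.22, *H4f16* with its flanks had 1298 and 1727, giving a ratio of 1.33, and the pair *H2bu2* and *H2aw* of chromosome 11 had 1296 and 876, giving a ratio of 0.676. *H2bc1* and *H2ac1* formed the last group, with 0 covered bases.

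**Figure D3:**
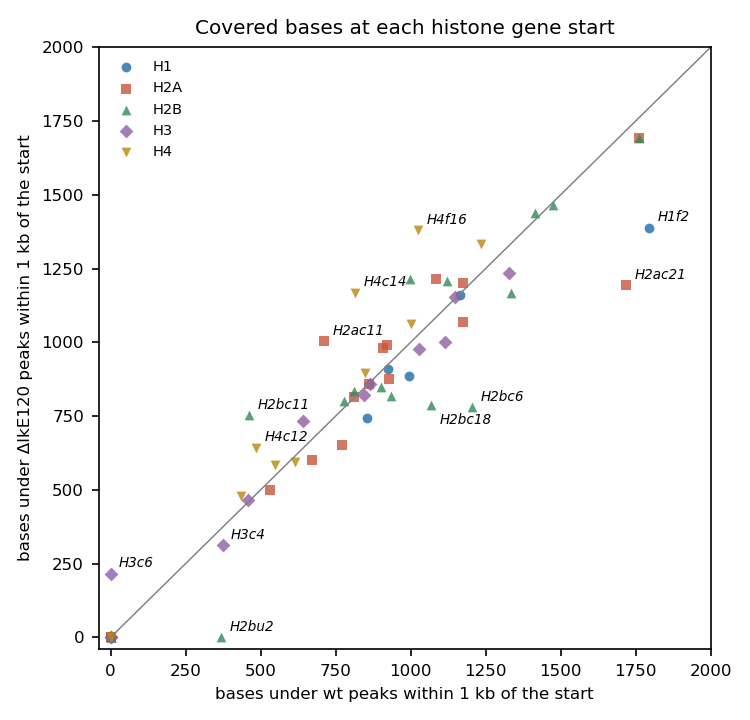
Bases within 1 kb of each of the 67 histone gene starts under wt peaks (x axis) and under ΔIkE120 peaks (y axis), marked by histone family, with the line of equal values. The 10 genes with the largest and smallest ratios and the 2 genes with a peak in 1 list only are named, and 15 genes lie at the origin.

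Promoter motifs differed among the histone families. CCAAT boxes (CCAAT, either strand) were in 53 of the 62 histone promoters, 85.5%, against 40.6% of all 13537 promoters of that length, and all 6 H1, 18 H2A, 16 H2B and 10 H3 promoters had one but only 3 of 12 H4 promoters did. The octamer (ATTTGCAT, either strand), the sequence bound by POU factors, was in 13 of 62, 21.0%, against 1.82% of all, in 7 H2A and 6 H2B promoters and in none of H1, H3 or H4. Promoters of head-to-head pairs can overlap, and a shared site was counted for both genes. The octamer was shared in this way by *H2ac1* and *H2bc1*, *H2ac12* and *H2bc12*, and *H2ac8* and *H2bc8*. The TATA box letters (TATAAA, either strand) were in 35 of 62, 56.5%, against 14.8%. On the sense strand with the first base 40 to 20 bp before the start they were in 12, 19.4%, against 3.25%. The H1 box (AAACACA, either strand) was in 9 of 62, 14.5%, against 6.40%, of which 5 were among the 6 H1 promoters. Histone promoters had a median of 11 CpG and 45.3% GC, against 12 CpG and 55.3% GC for all. A match describes the letters and not a bound site, and a missing match says only that these letters are not in the window.

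The promoters printed here show these motifs in capitals on stretches that the peaks avoided or met only in part. All are from RefSeq on GRCm38, written 5′ to 3′ on the strand of the gene. *H1f5*, chr13:21780576-21780875 on the minus strand, has the H1 box, CCAAT boxes and a TATA box 28 bp before the start, and no base of it was covered in either list.
H1f5: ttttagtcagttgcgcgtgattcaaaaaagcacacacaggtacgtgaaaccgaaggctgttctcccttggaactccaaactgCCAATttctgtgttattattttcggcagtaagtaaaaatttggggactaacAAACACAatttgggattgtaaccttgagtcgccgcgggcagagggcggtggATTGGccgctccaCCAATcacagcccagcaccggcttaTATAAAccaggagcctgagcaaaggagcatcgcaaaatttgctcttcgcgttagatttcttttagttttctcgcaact
*H2ac13*, chr13:21716162-21716461 on the plus strand, spans the *H2bc13* start as well, has 4 CCAAT matches and lies wholly in the gap, with 0 covered bases in both lists.
H2ac13: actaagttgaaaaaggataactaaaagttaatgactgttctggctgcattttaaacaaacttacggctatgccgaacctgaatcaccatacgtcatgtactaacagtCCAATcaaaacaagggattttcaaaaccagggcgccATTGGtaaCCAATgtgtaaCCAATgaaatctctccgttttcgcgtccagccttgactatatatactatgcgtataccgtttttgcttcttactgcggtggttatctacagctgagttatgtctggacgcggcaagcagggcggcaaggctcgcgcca
*H2bc3*, chr13:23746484-23746783 on the plus strand, has the octamer, CCAAT boxes and the TATA letters, and the peak it shares with *H3c3* covered 151 of its bases in wt and 97 in ΔIkE120.
H2bc3: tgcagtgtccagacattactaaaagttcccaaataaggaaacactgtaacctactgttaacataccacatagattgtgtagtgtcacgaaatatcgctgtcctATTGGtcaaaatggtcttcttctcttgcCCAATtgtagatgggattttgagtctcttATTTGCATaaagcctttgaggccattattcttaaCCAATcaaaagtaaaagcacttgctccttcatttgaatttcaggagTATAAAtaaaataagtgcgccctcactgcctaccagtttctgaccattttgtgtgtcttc
*H3c3*, chr13:23745472-23745771 on the minus strand, has 5 CCAAT matches, and the same peak covered 95 of its bases in wt and 70 in ΔIkE120.
H3c3: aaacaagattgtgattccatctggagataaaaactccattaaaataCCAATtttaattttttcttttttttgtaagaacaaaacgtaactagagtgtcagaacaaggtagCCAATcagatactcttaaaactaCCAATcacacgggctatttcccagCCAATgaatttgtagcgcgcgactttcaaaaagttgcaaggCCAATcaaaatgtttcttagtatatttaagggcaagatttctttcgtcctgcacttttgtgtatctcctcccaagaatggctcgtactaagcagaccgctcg
*H4c11*, chr13:21734784-21735083 on the plus strand, has no CCAAT match and only the TATA letters, and its upstream peak covered 189 bases in wt and 197 in ΔIkE120.
H4c11: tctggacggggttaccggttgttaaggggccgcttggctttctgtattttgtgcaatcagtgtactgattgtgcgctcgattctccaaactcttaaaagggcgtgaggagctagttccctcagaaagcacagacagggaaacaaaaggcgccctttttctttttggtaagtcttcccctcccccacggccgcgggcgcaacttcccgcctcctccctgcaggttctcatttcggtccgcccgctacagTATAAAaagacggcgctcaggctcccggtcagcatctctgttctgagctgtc
*H2bc23*, chr13:21810150-21810449 on the minus strand, is the sequence that *H4bc24* repeats, with 3 CCAAT matches and 0 covered bases in both lists. It had no peak within 1 kb and 0% unique words, so its bare promoter may reflect reads that could not be placed, which was not tested.
H2bc23: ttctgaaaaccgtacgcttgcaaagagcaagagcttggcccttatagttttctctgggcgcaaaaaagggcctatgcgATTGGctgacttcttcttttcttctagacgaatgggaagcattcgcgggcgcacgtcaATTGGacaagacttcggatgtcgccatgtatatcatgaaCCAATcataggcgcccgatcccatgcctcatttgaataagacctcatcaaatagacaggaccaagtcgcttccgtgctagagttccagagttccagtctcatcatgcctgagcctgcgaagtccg

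All 17 listed genes for histone transcription and 3′ end processing had a peak within 1 kb of the start in both lists, including *Npat*, the coactivator of the clusters, with 1654 covered bases in wt and 1430 in ΔIkE120, *Slbp*, which binds the stem-loop, with 1458 and 1448, and *Lsm10*, a subunit of the U7 particle, with 432 and 556. The others were *Casp8ap2*, *Lsm11*, *Zfp473*, *Hinfp*, *Cpsf2*, *Cpsf3*, *Sympk*, *Cstf2*, *Eri1*, *Pou2f1*, *E2f1*, *Ccne1*, *Ccne2* and *Cdk2*, and 10 of the 17 had the start base covered in wt and 11 in ΔIkE120, where 67.3% and 66.9% of all starts with a peak were covered. Histone chaperones had peaks at 8 of 9 genes in both lists, with *Nasp* the one without, and replication-independent histone genes at 7 of 12 in both. Over all protein-coding genes, 44.5% had a peak in wt and 43.8% in ΔIkE120. *H3f3a*, which encodes the H3.3 variant, had its whole window covered in both lists, and *H2az1*, for the H2A.Z variant, had 1228 and 1528 covered bases, while *H3f3b*, *H1f0*, *H1f8*, *H1f10* and *Macroh2a2* had none. The start used is the outer end of the annotated gene. Any other start of these genes or of *Nasp* was not examined, so a peak there would be missed. The other protein-coding genes inside the groups were *Hfe*, an iron regulator, with 902 and 920 covered bases, and *Trim17*, a ubiquitin ligase, with 928 and 876, and their start bases were covered in both lists. The peak at the *Trim17* start is also the one over the *H2aw* start, so neither gene can be given it alone.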

How the data were processed

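P5424 cells, wt or ΔIkE120, gave 1 H3K27ac ChIP-seq library per genotype. The submitters' processing notes name Bowtie2 2.3.4.3, Bowtie 1.0.0, deepTools 3.2.1, MACS2 2.1.1 and build GRCm38 without giving each a role. The authors deposited a list of broad peaks per library with 9 columns, of which the deposited score is the whole part of a multiple of the −log10 q-value. The deposited lists also give a fold enrichment, which is a ratio, and a −log10 p-value. Read depth is unknown, so peak heights were not compared between lists, and no test was run with 1 library per genotype.

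The genes and lists were chosen with earlier results of these data known. A start is the outer end of the RefSeq GRCm38 gene on its strand, taken from the RefSeq promoter table for 62 histone genes and from GENCODE names for 5. Of 21900 protein-coding genes, 364 had no strand found. A peak was at a start when at least 1 base lay within 1 kb. Named are genes with a peak in 1 list only or in neither, those of the 3 longest, 3 shortest, 3 highest-scoring and 3 lowest-scoring peaks per list and of the 3 that cover most starts, and the 5 largest and 5 smallest ratios of covered bases. Other named genes (among them H1f1, H1f3, H1f5, H2ac13, H2bc13, H2bc9 and H3c7) were chosen after their values were seen. The motifs were counted in RefSeq promoters. Words of 50 bases were counted on both strands of build mm9, the genome at hand. A start was found there by its promoter sequence for 62 genes, taking the copy nearest the GENCODE start where it occurred more than once, and by the GENCODE start alone for 5 (H2bc21, H4c14, H3c7, H2bc4 and H3c1). No mm9 coordinate was set against a peak. Interval code was tested on simulated data. Python 3.11.15, NumPy 2.4.6, Numba 0.67.0 and Matplotlib 3.10.9 were used. The 4C-seq libraries were not analysed here. 1 gene of the marker lists is not reported here.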

Additional observations from a re-analysis of the deposited data

How the results depend on the processing

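Of 48 values of 10 results under other settings, 34 were within 1.5 times the reported value and 14 were not. Requiring the peak to cover the start base left 9 of 67 histone starts in wt and 8 in ΔIkE120, against 29.9% and 29.3% of all protein-coding starts, with 4 in wt only and 3 in ΔIkE120 only, against 3.13% and 2.56%. A 500 bp window gave 2 starts in wt only and 2 in ΔIkE120 only, against 1.04% and 0.497%, a 2 kb window 2 and 3, against 1.35% and 0.632%, and the stronger part of each list, split at its median −log10 q, 3 and 0, against 1.66% and 0.822%. H2bu2 was in wt only and H3c6 in ΔIkE120 only under both windows, and under the score limit neither had a peak. With the 2 kb window, H2ac8 and H2bc8 were both counted through the same ΔIkE120 peak. Peaks over several histone starts rose from 0 to 22 in each list when reaching several 1 kb windows sufficed, and to 4 in wt and 2 in ΔIkE120 when peaks up to 500 bp apart were joined, since joining closes the bare stretch over a start. The ratio of covered bases ranged from 0.877 to 1.03 over all settings, on both sides of 1. Of the 67 histone starts, 49 had a peak in each list with the 500 bp window, against 42.7% of all protein-coding starts in wt and 42.2% in ΔIkE120. With the 2 kb window it was 54 in wt and 55 in ΔIkE120, against 46.6% and 45.8%, and in the stronger part of each list 46 and 43, against 41.2% and 40.4%. As an alternative chosen after seeing the data, the 57 genes with at least 50% unique words gave 48 starts with a peak in each list. That limit was not applied to all protein-coding genes. Their shares without it were 44.5% in wt and 43.8% in ΔIkE120.

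No paired analysis was possible because each genotype has 1 library and the labels give no replicate numbers. Depth limits which weak peaks are called, and a missing peak does not show that H3K27ac was absent. Lists trimmed to their 29902 strongest peaks gave 51 starts in wt and 51 in ΔIkE120, against 44.0% and 43.8% of all.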
